A study of Mus musculus with 8 samples.

Results

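The 36 aminoacyl-tRNA synthetase genes described here are those of a named list: 18 whose enzymes charge tRNAs in the cytosol, 2 (Gars and Kars) whose enzymes serve the cytosol and the mitochondria, and 16 whose enzymes work in mitochondria. All 36 were found among the 14455 genes that could be given values, and all 36 passed the filter on low values in every comparison. They were measured by RNA sequencing of CD4 T cells of C57BL/6 mice that had become T helper 1 (Th1) cells in culture, where all 4 groups were stimulated with anti-CD3 and anti-CD28 while anti-IL-4 (5 µg/ml) and the cytokine IL-12 (2 ng/ml) were present. In the knockdown experiment the cells were transduced with a short hairpin RNA against Pcbp1 or with a scrambled hairpin, and total RNA depleted of ribosomal RNA was sequenced. In the iron experiment the cells received the iron chelator CPX (ciclopirox olamine) or its solvent DMSO, and polyA RNA was sequenced. Each of the 4 groups had 2 libraries. No source used here gives the dose of CPX or how long it acted. Whether replicates are separate cultures or animals is not stated, so p-values measure only the spread between these libraries, which may be technical.

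An aminoacyl-tRNA synthetase joins an amino acid to the tRNAs that read its codons, and the charged tRNA carries it to the ribosome. Mitochondria make their own small set of proteins and need charged tRNAs of their own, so most amino acids have a cytosolic and a mitochondrial synthetase from separate nuclear genes. Glycine and lysine are exceptions in which the same gene gives both enzymes, and mitochondrial glutamine tRNA is charged with glutamate by Ears2 and then converted by an amidotransferase. In the cytosol several synthetases sit together in the multisynthetase complex, held by the scaffold proteins encoded by Aimp1, Aimp2 and Eef1e1. When amino acids run short or other stresses reach the eIF2 kinases, the transcription factor ATF4 is known to raise many cytosolic synthetase genes. Pcbp1 encodes a poly(C)-binding RNA-binding protein that also carries iron to ferritin and other iron proteins.

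Levels are given as RPM, reads scaled to a library total of 1e+06. A gene was called at an adjusted p under 0.05, with Benjamini-Hochberg adjustment over all genes tested. For the hairpin this was edgeR's quasi-likelihood test of the counts, and for CPX limma on log2(RPM + 0.5). Library totals were 14299941 to 15518303 counts in Pcbp1 hairpin libraries and 14174293 to 14321096 counts in scrambled libraries. They were 19193784 to 19239061 rescaled units with CPX and 19547221 to 19662145 with DMSO, a unit standing for 1.97 reads. Pcbp1 itself stood at 15.1 and 16.1 RPM in Pcbp1 hairpin libraries, against 44.0 and 51.7 RPM in scrambled libraries. It stood at 238 and 199 RPM with CPX, against 506 and 538 RPM with DMSO. The markers examined were Cd3e and Cd3g of T cells, Cd4 of CD4 T cells, and Tbx21, Ifng, Cxcr3 and Il12rb2 of Th1 cells. All 7 passed the filter on low values in both experiments. With the hairpin 3 of them (Cd3e, Cd4 and Tbx21) were called up and 2 (Cd3g and Ifng) down, with a median log2 fold change of 0.33, and with CPX none was called up and 4 (Cd3e, Ifng, Cxcr3 and Il12rb2) down, with a median of -1.35. Their summed level, of which Ifng made up most, was 25292 and 19487 RPM in Pcbp1 hairpin libraries, against 50806 and 41405 RPM in scrambled libraries, and 1891 and 5557 RPM with CPX, against 14642 and 24737 RPM with DMSO. Replicates were less alike in the CPX experiment, where 1773 of 11466 genes differed more than 2-fold between the CPX libraries and 524 between the DMSO libraries, against 94 and 77 of 11575 genes between the Pcbp1 hairpin and between the scrambled libraries. In these bulk libraries fewer cells of a type and less RNA per cell cannot be told apart.

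Promoter windows of 300 bases (250 before to 50 after the transcription start, RefSeq, GRCm38.p6) were at hand for 27 of the 36 genes, and none is used here for Cars, Hars, Hars2, Lars, Nars, Pars2, Rars, Vars and Wars. Windows for 4 genes are shown because these genes moved together or apart in the results: Aars rose in both experiments, Gars rose with the Pcbp1 hairpin alone at the threshold, and Kars and Farsa rose most with the hairpin and fell with CPX. Capitals mark matches, on either strand, to TGATGNAA (the core of the amino acid response element to which ATF4 binds) and to CACGTG (the E-box bound by MYC). No matches to different motifs overlapped in these 4 windows.
Aars (chr8:111033592-111033891, plus strand): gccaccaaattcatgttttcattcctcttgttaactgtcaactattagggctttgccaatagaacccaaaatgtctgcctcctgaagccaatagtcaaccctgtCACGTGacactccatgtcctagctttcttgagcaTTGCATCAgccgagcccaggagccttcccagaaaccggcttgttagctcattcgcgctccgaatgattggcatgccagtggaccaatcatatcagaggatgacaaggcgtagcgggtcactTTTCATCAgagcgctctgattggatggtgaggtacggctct
Gars (chr6:55037751-55038050, plus strand): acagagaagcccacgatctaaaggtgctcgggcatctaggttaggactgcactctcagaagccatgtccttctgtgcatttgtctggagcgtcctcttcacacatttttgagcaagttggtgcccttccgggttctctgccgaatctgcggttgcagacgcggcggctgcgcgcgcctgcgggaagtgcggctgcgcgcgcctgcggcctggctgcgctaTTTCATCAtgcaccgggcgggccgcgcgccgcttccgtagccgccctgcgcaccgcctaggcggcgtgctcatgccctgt
Kars (chr8:112011305-112011604, minus strand): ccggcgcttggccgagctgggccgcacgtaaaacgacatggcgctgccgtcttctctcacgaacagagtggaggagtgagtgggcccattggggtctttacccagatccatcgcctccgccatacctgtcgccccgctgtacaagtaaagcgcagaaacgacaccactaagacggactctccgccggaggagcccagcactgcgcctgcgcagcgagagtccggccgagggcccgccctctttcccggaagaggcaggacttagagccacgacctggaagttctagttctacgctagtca
Farsa (chr8:84856736-84857035, plus strand): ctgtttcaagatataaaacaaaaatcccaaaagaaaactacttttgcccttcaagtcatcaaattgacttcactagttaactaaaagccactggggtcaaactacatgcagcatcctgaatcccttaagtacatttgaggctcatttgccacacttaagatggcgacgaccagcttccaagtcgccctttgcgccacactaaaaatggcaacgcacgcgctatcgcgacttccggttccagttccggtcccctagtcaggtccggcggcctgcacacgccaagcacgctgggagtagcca

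The Aars window held both motifs, with 2 matches to TGATGNAA that start 112 bases before and 9 bases after the transcription start. The Gars window held 1 match to TGATGNAA. The Kars and Farsa windows held no match to these letters. TGATGNAA was found in 5 of the 27 synthetase windows (Aars, Iars, Tars, Yars and Gars), or 18.5%, against 3.97% of all 32851 windows. Of these genes 4 are cytosolic and Gars serves both compartments. CACGTG was found in 5 synthetase windows (Aars, Farsb, Iars, Tars and Ears2), 18.5% against 7.15% of all windows. A match is a description of these letters and says nothing of binding in these cells.

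With the Pcbp1 hairpin, cytosolic synthetase genes rose more often than they fell, while the mitochondrial ones divided mainly between falls and no call. Of the 36 genes, 15 rose, 7 fell and 14 were not called, where 56% of all 11575 genes tested were called (29.3% up and 26.7% down). Among the 18 cytosolic genes 12 rose and 1 (Dars) fell, and both genes that serve the 2 compartments rose. Among the 16 mitochondrial genes 6 fell and 1 rose. The median log2 fold change was 0.38 over the 20 cytosolic and shared genes and -0.07 over the 16 mitochondrial genes, beside 0.00 over all genes. With gene length and GC content taken out, an alternative chosen after seeing the data, these medians were 0.20, -0.21 and -0.06, and 10 of the 20 cytosolic and shared genes rose and 4 fell. That alternative used limma on log2(RPM + 0.5) and not edgeR. Limma without this step gave medians of 0.49, -0.01 and 0.10, and 17 of the 20 rose and 1 fell.

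**Figure D1:**
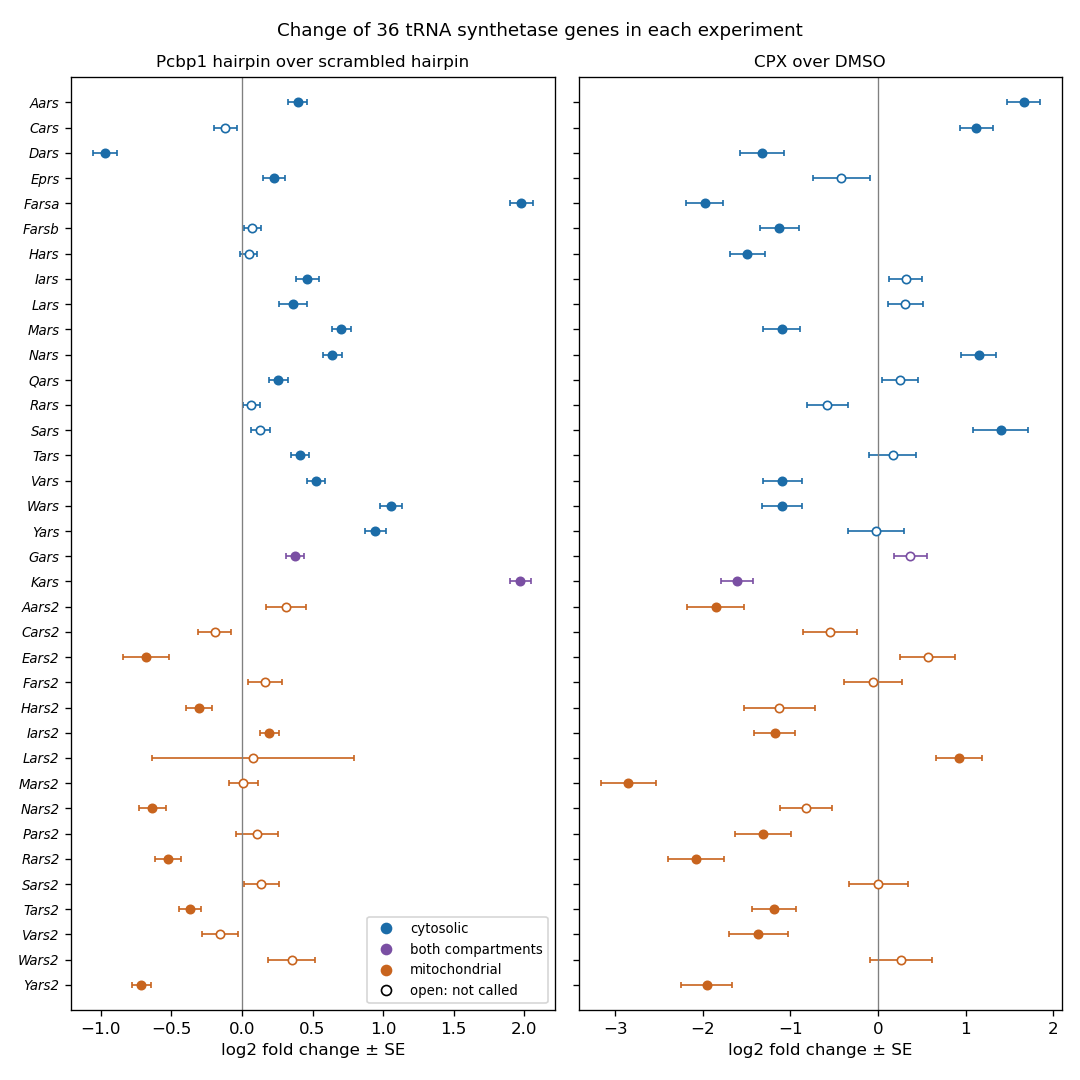
Log2 fold change (horizontal axis, with SE bars) of each of the 36 synthetase genes for Pcbp1 hairpin over scrambled hairpin (left) and CPX over DMSO (right), coloured by compartment, with open circles for genes not called. Farsa and Kars lie near 2 on the left and below -1.5 on the right, and the mitochondrial gene Mars2 lies lowest on the right at -2.85.

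Farsa and Kars rose most. Farsa encodes the catalytic alpha subunit of cytosolic phenylalanyl-tRNA synthetase. It stood at 145 and 151 RPM in Pcbp1 hairpin libraries, against 37.1 and 32.7 RPM in scrambled libraries, 3.94-fold higher (log2 fold change 1.98, SE 0.08, edgeR, adjusted p = 8.58e-06). Farsb, the gene of the beta subunit that completes the same enzyme, was not called (188 and 199 RPM in Pcbp1 hairpin libraries, 171 and 171 RPM in scrambled libraries, adjusted p = 0.346). Kars, the lysyl-tRNA synthetase of both compartments, stood at 354 and 373 RPM in Pcbp1 hairpin libraries, against 89.7 and 82.2 RPM in scrambled libraries, 3.93-fold higher (1.97, SE 0.07, edgeR, adjusted p = 7.93e-06). In both genes the lowest Pcbp1 hairpin library was far above the highest scrambled one.

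Wars and Yars followed. Wars, tryptophanyl-tRNA synthetase and in human cells a gene induced by interferon gamma, stood at 115 and 127 RPM in Pcbp1 hairpin libraries, against 53.4 and 54.9 RPM in scrambled libraries (2.08-fold higher, edgeR, adjusted p = 3.71e-05). Yars, tyrosyl-tRNA synthetase, stood at 99.9 and 97.2 RPM in Pcbp1 hairpin libraries, against 49.7 and 45.3 RPM in scrambled libraries (1.93-fold higher, adjusted p = 4.63e-05). Replicates of each group lay close together in both genes and the groups were well apart. The other cytosolic rises were smaller, with fold changes of 1.63 for Mars (methionine), 1.56 for Nars (asparagine), 1.44 for Vars (valine), 1.38 for Iars (isoleucine), 1.33 for Tars (threonine), 1.31 for Aars (alanine), 1.28 for Lars (leucine), 1.19 for Qars (glutamine) and 1.17 for Eprs (glutamate and proline). Gars, the glycyl-tRNA synthetase, rose 1.30-fold (389 and 370.2 RPM in Pcbp1 hairpin libraries, 278 and 265 RPM in scrambled libraries). The smallest of these rises were also the least firm: Eprs lost its call without scrambled replicate 1 (and without Pcbp1 hairpin replicate 1), Lars without either scrambled replicate 2 or Pcbp1 hairpin replicate 1, and Qars when scrambled replicate 1 or Pcbp1 hairpin replicate 2 was left out. Eprs and Qars were not called by DESeq2 either. With length and GC content taken out, Vars, Iars, Lars and Qars were no longer called, and Aars (-0.20) and Eprs (-0.06) turned sign.

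Dars was the exception among cytosolic genes. It encodes aspartyl-tRNA synthetase and stood at 179.5 and 201 RPM in Pcbp1 hairpin libraries, against 332 and 361 RPM in scrambled libraries. It was 1.96-fold lower with the hairpin (-0.97 on the log2 scale, SE 0.08, edgeR, adjusted p = 7.05e-05). Both Pcbp1 hairpin libraries were below both scrambled ones, which with 2 libraries per group adds nothing to the call. Dars belongs to the multisynthetase complex, whose other 7 synthetase genes on the list (Eprs, Iars, Kars, Lars, Mars, Qars and Rars) counted 6 rises and no fall. Of the 12 cytosolic and shared genes outside the complex 8 rose and none fell, so the rises were not particular to it. Of all genes the hairpin raised 29.3% and lowered 26.7%. The scaffold genes of the complex did not move with the rises of its synthetase genes. Aimp1 fell 1.36-fold and Eef1e1 fell 1.27-fold, and Aimp2 stood at 35.6 and 36.4 RPM in Pcbp1 hairpin libraries, against 36.8 and 41.5 RPM in scrambled libraries (edgeR, adjusted p = 0.09). Besides Farsb, 4 cytosolic genes were not called, namely Cars (cysteine), Hars (histidine), Rars (arginine) and Sars (serine), with log2 fold changes of -0.12, 0.05, 0.07 and 0.13 in the same order. With length and GC content taken out, Cars (-0.43) and Sars (-0.22) were called down and Rars (0.26) and Farsb (0.26) up.

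**Figure D2:**
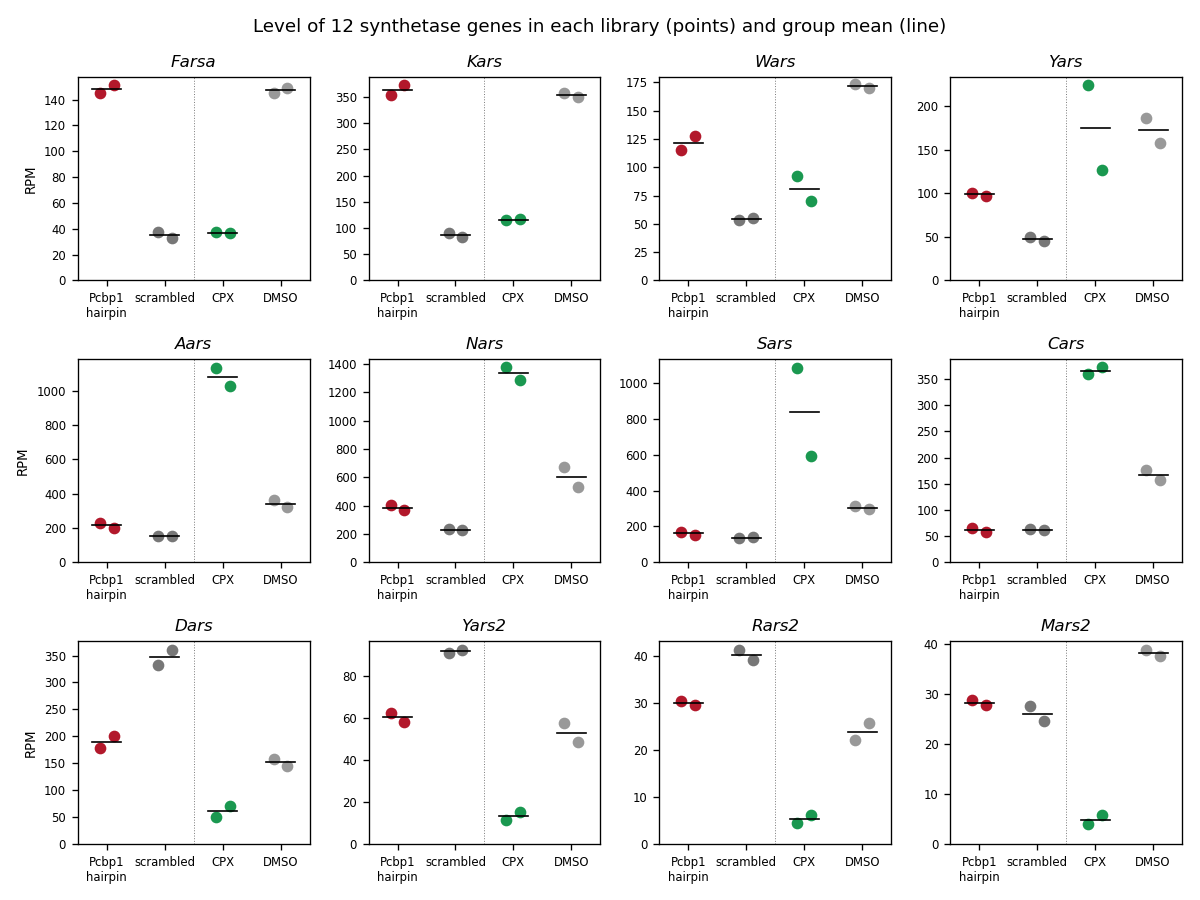
RPM (vertical axis, from 0) of 12 synthetase genes in each of the 8 libraries, with points for libraries and a line for the mean of each group of 2; the dotted line parts the experiments. Farsa and Kars are high with the Pcbp1 hairpin and low with CPX, Dars is low with both, and Sars shows the wide gap between the CPX replicates.

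The mitochondrial falls with the Pcbp1 hairpin were all less than 2-fold. Yars2, the mitochondrial tyrosyl-tRNA synthetase, stood at 62.4 and 58.3 RPM in Pcbp1 hairpin libraries, against 91.1 and 92.5 RPM in scrambled libraries (1.64-fold lower, edgeR, adjusted p = 1.08e-04). Ears2, which charges glutamate, stood at 10.6 and 8.95 RPM in Pcbp1 hairpin libraries, against 13.1 and 16.1 RPM in scrambled libraries (1.60-fold lower, adjusted p = 0.00852). Nars2 (asparagine) stood at 26.3 and 24.8 RPM in Pcbp1 hairpin libraries, against 38.3 and 35.3 RPM in scrambled libraries (1.55-fold lower, adjusted p = 0.00109). The groups were apart in all 3, which with 2 libraries per group adds nothing to the calls. Ears2 had few reads and lost its call without scrambled replicate 2. Rars2 (arginine) fell 1.44-fold, Tars2 (threonine) 1.29-fold and Hars2 (histidine) 1.23-fold. Leaving out scrambled replicate 2 or Pcbp1 hairpin replicate 1 ended the Hars2 call, as did DESeq2 and limma, and the Rars2 call was lost with length and GC content taken out. The rise of Iars2 (isoleucine), 1.14-fold, was lost in 10 of 12 alternatives and each time 1 library was left out, and it turned to -0.14 with length and GC content taken out. The remaining mitochondrial genes Aars2, Cars2, Fars2, Lars2, Mars2, Pars2, Sars2, Vars2 and Wars2 were not called, with log2 fold changes between -0.19 (Cars2) and 0.35 (Wars2), although Vars2 was called down with length and GC content taken out (-0.66).

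CPX split the synthetase genes differently. It raised 4 cytosolic genes more than 2-fold, lowered 7 others and Kars by as much, and lowered 8 of the 16 mitochondrial genes. In all, 5 synthetase genes rose, 16 fell and 15 were not called, where 44.7% of all 11466 genes tested were called (19.9% up and 24.8% down). The median log2 fold change was -1.15 over the mitochondrial genes and -0.22 over the cytosolic and shared genes, beside -0.12 over all genes. With TMM scaling the 3 medians were -1.03, -0.09 and 0.00. Leaving out either DMSO replicate leaves 1 library in that group, and far fewer genes were then called, over all genes as well as among the synthetases. Aars, Farsa, Kars and Mars2 kept their calls each time. The mitochondrial median was -1.12 without DMSO replicate 1 and -1.09 without DMSO replicate 2. That of the cytosolic and shared genes was -0.09 and -0.36 in the same order.

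The 4 cytosolic genes that rose charge alanine, serine, asparagine and cysteine. Aars stood at 1135 and 1029.7 RPM with CPX, against 363 and 321 RPM with DMSO, 3.17-fold higher (log2 fold change 1.66, SE 0.19, limma, adjusted p = 0.00311). Nars stood at 1377 and 1291 RPM with CPX, against 673 and 536 RPM with DMSO (2.22-fold higher, adjusted p = 0.00841). Cars stood at 359 and 372 RPM with CPX, against 177 and 158 RPM with DMSO (2.18-fold higher, adjusted p = 0.00756). In these 3 genes the CPX replicates lay within a narrow range well above both DMSO libraries. Sars stood at 1084 and 593 RPM with CPX, against 312 and 295 RPM with DMSO (2.64-fold higher, limma, adjusted p = 0.0173), so its CPX replicates were far apart although both lay above the DMSO libraries. Sars and Cars lost their calls without DMSO replicate 1 or DMSO replicate 2, and Nars without DMSO replicate 2 (adjusted p = 0.09). Gars, Iars, Lars, Qars and Tars were not called, with log2 fold changes between 0.17 and 0.37, and Yars stood at 224 and 126 RPM with CPX, against 187 and 157 RPM with DMSO. Eprs (-0.42) and Rars (-0.58) were not called either, but Eprs was without CPX replicate 2 (-0.86) and Rars without CPX replicate 1 (-0.81).

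Farsa and Kars fell most among the cytosolic and shared genes. Farsa stood at 37.3 and 36.6 RPM with CPX, against 145 and 149 RPM with DMSO, 3.94-fold lower (-1.98, SE 0.21, limma, adjusted p = 0.00293). Its partner subunit Farsb stood at 67.7 and 60.0 RPM with CPX, against 154 and 127 RPM with DMSO (2.18-fold lower, adjusted p = 0.0122). Kars stood at 115 and 116 RPM with CPX, against 358 and 350.3 RPM with DMSO, 3.06-fold lower (-1.61, SE 0.19, adjusted p = 0.00318). The replicates of both groups were within a few RPM of each other in Farsa and Kars. Hars fell 2.81-fold (68.0 and 74.2 RPM with CPX, 202 and 199 RPM with DMSO) and Dars 2.51-fold (50.9 and 71.2 RPM with CPX, 158 and 146 RPM with DMSO). Mars, Vars and Wars fell 2.14-fold, 2.13-fold and 2.13-fold. Of these, Farsb, Dars, Mars, Vars and Wars lost their calls without DMSO replicate 1 or DMSO replicate 2, and Hars without DMSO replicate 1. Among the 8 synthetase genes of the multisynthetase complex CPX lowered 3 (Dars, Kars and Mars), or 37.5%, and raised none, where it lowered 24.8% of all genes. Of the 12 cytosolic and shared genes outside the complex it lowered 5 and raised 4. Of the scaffolds it lowered Aimp2 5.65-fold and also lowered Eef1e1 (57.8 and 62.8 RPM with CPX, 255 and 230.1 RPM with DMSO).

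The mitochondrial gene with the largest fall was Mars2, the mitochondrial methionyl-tRNA synthetase. It stood at 4.06 and 5.82 RPM with CPX, against 38.9 and 37.7 RPM with DMSO, 7.22-fold lower (-2.85, SE 0.32, limma, adjusted p = 0.00306), the largest fall of the 36 genes in either experiment. Rars2 stood at 4.48 and 6.19 RPM with CPX, against 22.2 and 25.7 RPM with DMSO (4.22-fold lower, adjusted p = 0.00618). Yars2 stood at 11.4 and 15.5 RPM with CPX, against 57.7 and 48.4 RPM with DMSO (3.88-fold lower, adjusted p = 0.00552). Every CPX library was below every DMSO library in these genes. With 2 libraries per group this adds nothing to the calls. Aars2 (alanine) stood at 6.88 and 4.78 RPM with CPX, against 22.5 and 21.5 RPM with DMSO (3.61-fold lower, limma, adjusted p = 0.00852). Vars2, Pars2 (proline), Tars2 and Iars2 fell 2.58-fold, 2.49-fold, 2.28-fold and 2.27-fold. Hars2 did not pass (11.3 and 23.6 RPM with CPX, 37.8 and 34.9 RPM with DMSO, limma, adjusted p = 0.0685), but did without CPX replicate 2 (adjusted p = 0.0151). Without DMSO replicate 1 or DMSO replicate 2, Aars2, Vars2, Pars2, Tars2 and Iars2 lost their calls (Pars2 also without CPX replicate 1 and Vars2 also without CPX replicate 2), as Yars2 did without DMSO replicate 1 and Rars2 without DMSO replicate 2. Cars2, Ears2, Fars2, Nars2, Sars2 and Wars2 were not called, with log2 fold changes between -0.82 (Nars2) and 0.57 (Ears2).

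Summed over the class, the 15 mitochondrial genes other than Lars2 gave 178 and 193 RPM with CPX, against 413 and 414 RPM with DMSO. They gave 406 and 392 RPM in Pcbp1 hairpin libraries, against 443 and 446 RPM in scrambled libraries. The 20 cytosolic and shared genes gave 7474 and 6688 RPM with CPX, against 5987 and 5331 RPM with DMSO. They gave 4310.3 and 4144 RPM in Pcbp1 hairpin libraries, against 3032 and 3049 RPM in scrambled libraries. The sum of the cytosolic and shared genes was thus higher with CPX in both libraries although 8 of them fell and 4 rose; the 3 with the highest RPM with CPX were Nars, Aars and Sars.

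Lars2, the mitochondrial leucyl-tRNA synthetase, stood apart from the other mitochondrial genes in level and in spread. It stood at 1754 and 8330.4 RPM in Pcbp1 hairpin libraries, against 6841 and 2069 RPM in scrambled libraries. Replicates of the same group thus differed by more than 3-fold and the groups overlapped, and no call was made (edgeR, adjusted p = 0.931). Over the other 35 genes the largest ratio between replicates was 1.24 in both groups. In the polyA libraries Lars2 stood at 244 and 189 RPM with CPX, against 95.4 and 135 RPM with DMSO (1.89-fold higher, limma, adjusted p = 0.0363), a call lost whenever 1 library was left out. The 5.8S ribosomal RNA gene n-R5-8s1 had 124 and 2019 counts in Pcbp1 hairpin libraries, against 294 and 138 counts in scrambled libraries. It thus put these 4 libraries in the same order as Lars2 did. In the polyA libraries it had 3 and 5 units with CPX, against 1 and 2 units with DMSO. Its part in the Lars2 values was not tested. Without Pcbp1 hairpin replicate 2, Lars2 was called lower with the hairpin (-1.48, adjusted p = 0.0441), and no direction is read from it here.

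**Figure D3:**
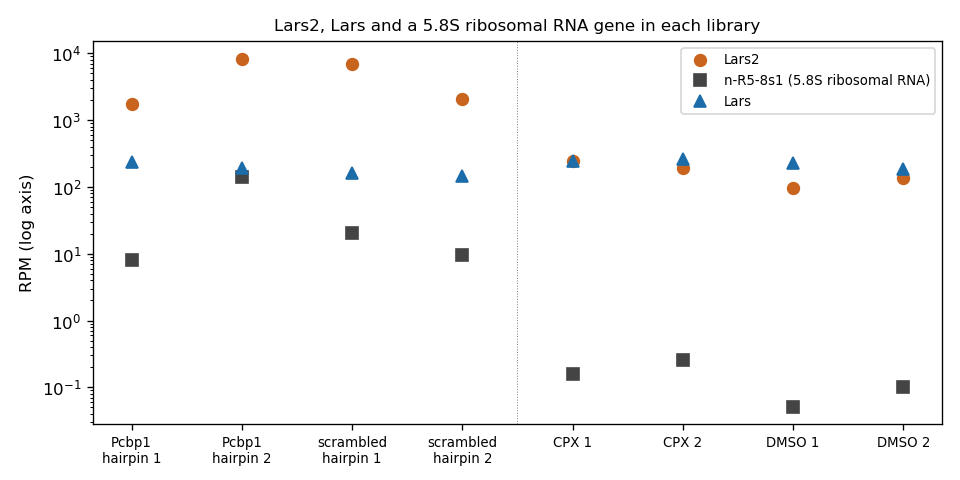
RPM (vertical log axis) of Lars2, of its cytosolic counterpart Lars and of the 5.8S ribosomal RNA gene n-R5-8s1 in each of the 8 libraries. Lars2 and n-R5-8s1 are high in Pcbp1 hairpin replicate 2 and scrambled hairpin replicate 1 and far lower in the polyA libraries on the right, while Lars stays between 145 and 258 RPM.

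Per kilobase of transcript, the median level was higher over the cytosolic and shared genes than over the mitochondrial genes in all 4 groups, but the classes were apart only with DMSO. With DMSO their levels ran from 51.2 (Qars) to 220.2 RPM per kilobase (Nars), and those of the mitochondrial genes from 1.48 (Wars2) to 29.5 (Lars2), so that the classes did not overlap. With CPX they ran from 20.2 (Farsa) to 486 (Nars) for the cytosolic and shared genes, and from 0.438 (Mars2) to 55.7 (Lars2) for the mitochondrial ones. Lars2 thus lay within the cytosolic range, and the next mitochondrial gene, Sars2 (11.6), below it. In scrambled libraries the cytosolic and shared genes ran from 15.0 (Vars) to 159 (Dars) and the mitochondrial genes other than Lars2 from 1.90 (Wars2) to 32.7 (Yars2). In Pcbp1 hairpin libraries they ran from 19.1 (Cars) to 166 (Kars) and from 2.51 (Mars2) to 21.5 (Yars2). The highest cytosolic or shared level per kilobase therefore stood with Kars in Pcbp1 hairpin libraries, with Dars in scrambled libraries and with Nars in both groups of the iron experiment. Lengths are those of the longest coding transcript in GENCODE M21, not of the authors' annotation.

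Set side by side, 13 amino acids have a cytosolic and a mitochondrial gene among the 36. With the Pcbp1 hairpin both genes were called with opposite signs for 3 of them: asparagine (Nars 0.64, Nars2 -0.64), threonine (Tars 0.41, Tars2 -0.37) and tyrosine (Yars 0.94, Yars2 -0.71). Tars stood at 287 and 267 RPM in Pcbp1 hairpin libraries, against 189 and 198 RPM in scrambled libraries, while Tars2 stood at 45.4 and 43.9 RPM in Pcbp1 hairpin libraries, against 53.5 and 53.3 RPM in scrambled libraries. For tyrosine the log2 ratio of Yars to Yars2 was 0.68 and 0.74 in Pcbp1 hairpin libraries, against -0.87 and -1.03 in scrambled libraries, so the cytosolic gene had the higher RPM with the Pcbp1 hairpin and the mitochondrial gene with the scrambled one. With CPX the same held at the threshold for alanine alone (Aars 1.66, Aars2 -1.85). The log2 ratio of Aars to Aars2 was 7.37 and 7.75 with CPX, against 4.01 and 3.90 with DMSO. For methionine and valine both genes of the pair fell with CPX (Mars -1.10 and Mars2 -2.85, Vars -1.09 and Vars2 -1.37).

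**Figure D4:**
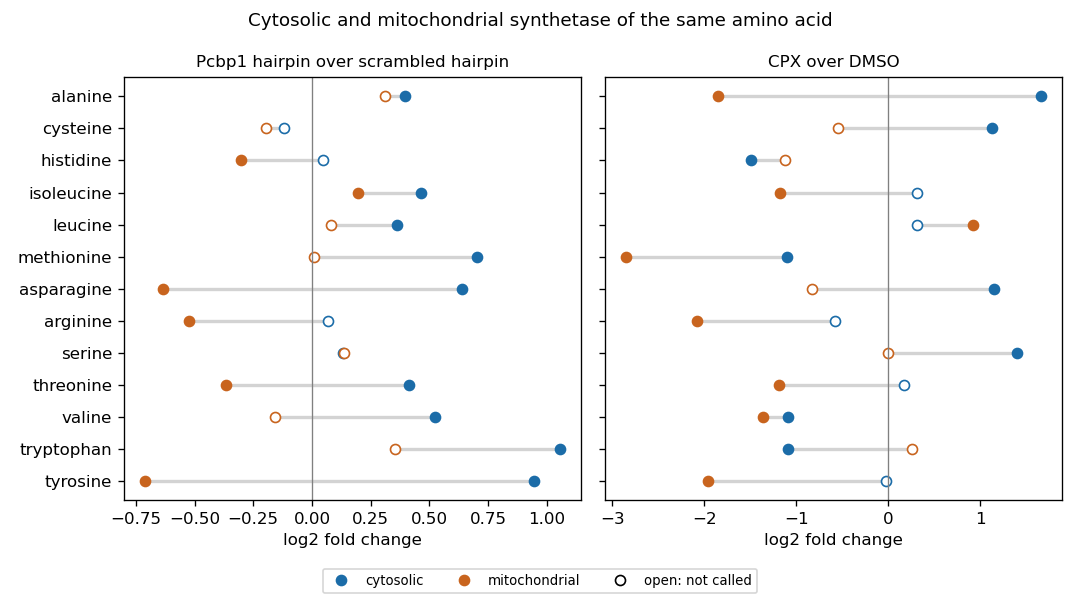
Log2 fold change (horizontal axis) of the cytosolic and the mitochondrial synthetase of 13 amino acids, for Pcbp1 hairpin over scrambled hairpin (left) and CPX over DMSO (right), joined by a line; open circles were not called. The widest gaps are those of tyrosine and asparagine on the left and of alanine on the right.

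The effects of the hairpin and of CPX, each taken against the control of its own experiment, were set against each other gene by gene. The experiments also differ in transduction and in RNA selection (total RNA depleted of ribosomal RNA against polyA RNA). A difference between the effects cannot be told apart from these differences between the experiments. The difference between the effects (knockdown minus CPX, limma over all 8 libraries) was positive and called in 17 synthetase genes and negative and called in 4, where 51.3% of 10430 genes were called (35.2% positive and 16.1% negative). Of all calls 68.7% were positive, but 51.9% after quantile normalization and 53.8% with TMM scaling, and the median difference of all genes was 0.40, against -0.02 and 0.04 under those scalings. The median over the cytosolic and shared synthetase genes was 0.61, against 0.48 and 0.23, and over the mitochondrial genes 0.93, against 0.36 and 0.56. Farsa had the largest difference (4.05, SE 0.18, limma, adjusted p = 5.80e-05), then Kars (3.69), Mars2 (2.97), Aars2 (2.25) and Wars (2.25). These 5 calls held under each of the 18 alternatives tried, at 3.55 to 4.14 for Farsa and 3.15 to 3.75 for Kars. Aars (-1.17, adjusted p = 0.00169), Sars (-1.16), Cars (-1.14) and Ears2 (-1.12) had the negative ones. The Aars and Cars calls held under each alternative. The Ears2 call was lost without DMSO replicate 2, scrambled replicate 2 or Pcbp1 hairpin replicate 2, and the Sars call without any 1 DMSO, scrambled or Pcbp1 hairpin library. This fit used the same residual variance of a gene for both experiments, although CPX replicates were less alike. The SE of the difference was below that of the CPX effect for Farsa (0.18 against 0.21) and above it for Sars (0.36 against 0.31). For genes whose CPX libraries spread more, p-values of the difference may thus be too small.

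**Figure D5:**
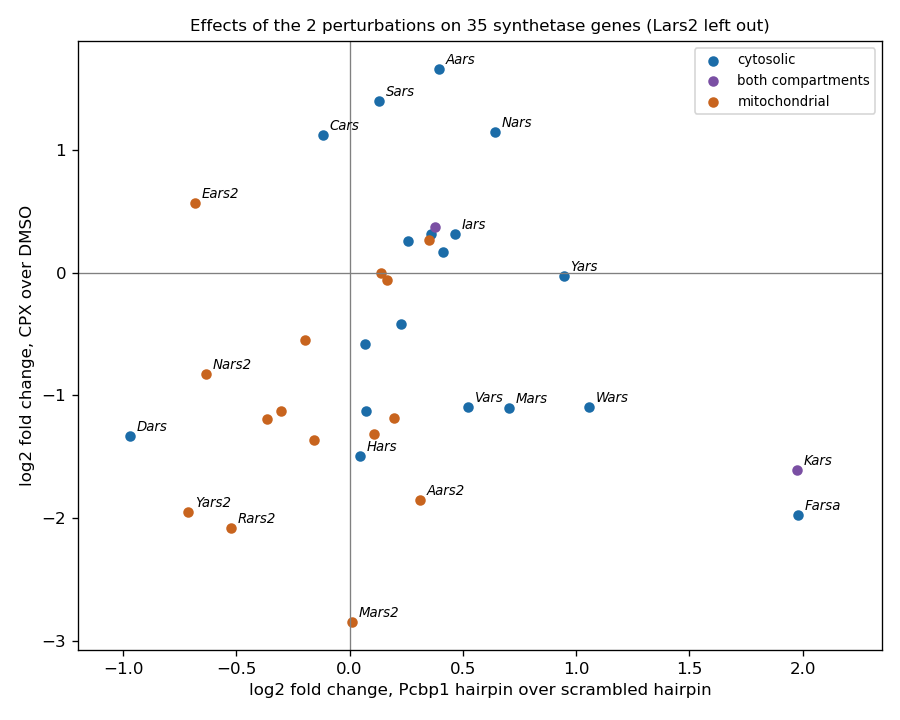
Log2 fold change of 35 synthetase genes for Pcbp1 hairpin over scrambled hairpin (horizontal axis) against that for CPX over DMSO (vertical axis), coloured by compartment; Lars2 is left out. Farsa and Kars stand alone at the lower right, Aars, Sars, Nars and Cars at the top, and Dars, Rars2 and Yars2 at the lower left.

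Called in both experiments, Farsa, Kars, Mars, Vars and Wars rose with the Pcbp1 hairpin and fell with CPX, as did Iars2, whose rise was not firm. Aars and Nars rose in both experiments, and Dars, Rars2, Tars2 and Yars2 fell in both. With length and GC content taken out, the hairpin rise of Aars turned sign (-0.20) and the hairpin calls of Vars and Rars2 were lost. Of the CPX calls named here, those of Farsa, Kars and Aars alone held under every alternative. The difference between the effects was called for Rars2 (1.67), Tars2 (0.93) and Yars2 (1.35), each lower with CPX, and not for Dars (0.46, limma, adjusted p = 0.157) or Nars (-0.41, adjusted p = 0.128), although TMM scaling called Nars (-0.78, adjusted p = 0.031). The Tars2 call was lost after quantile normalization (0.39) and with length and GC content taken out (0.37). Positive differences were also called for Farsb (1.30), Hars (1.64), Mars (1.91), Vars (1.72), Iars2 (1.48), Pars2 (1.52) and Vars2 (1.32). Those of Rars (0.75) and Yars (1.07) were lost without any 1 DMSO, scrambled or Pcbp1 hairpin library and under both other scalings, as well as with length and GC content taken out. That of Vars2 was lost after quantile normalization, with length and GC content taken out (0.61) and when scrambled replicate 1 or either Pcbp1 hairpin library was left out. Rars, Cars2, Fars2, Sars2 and Wars2 were called in neither experiment.

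Other genes that act on tRNAs were counted beside the synthetases. Their counts are read against all genes, of which the hairpin raised 29.3% and lowered 26.7% and CPX raised 19.9% and lowered 24.8%. Of 41 listed tRNA modification genes CPX lowered 27 (65.9%) and raised none, with a median log2 fold change of -1.51. The hairpin raised 12 of the 40 tested and lowered 9, shares near those of all genes. Elp3, the catalytic subunit of Elongator, which modifies wobble uridines, stood at 59.6 and 63.2 RPM in Pcbp1 hairpin libraries, against 14.2 and 13.6 RPM in scrambled libraries (4.10-fold higher), and at 13.1 and 12.7 RPM with CPX, against 53.2 and 53.2 RPM with DMSO (4.02-fold lower). Its fold changes in both experiments were near those of Farsa. Nsun2, a tRNA cytosine methyltransferase, rose 2.15-fold with the hairpin and fell 3.84-fold with CPX, and Pus7, a pseudouridine synthase, fell 8.64-fold with CPX. Of 20 tested genes of tRNA maturation and export the hairpin lowered 12 and raised 2 (Pop1 and Elac2), and CPX lowered 10 and raised 1 (Clp1). The RNase P subunit gene Rpp40 stood at 1.82 and 1.61 RPM with CPX, against 27.6 and 23.8 RPM with DMSO, 11.8-fold lower.

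Partners of the mitochondrial synthetases were tested too. Of 4 genes with values among 6 names of the glutamyl-tRNA amidotransferase and the methionyl-tRNA formyltransferase, CPX lowered Gatc (7.36-fold) and Mtfmt (4.19-fold), and the hairpin raised Gatc (1.60-fold) and Pet112l, an amidotransferase subunit gene (1.34-fold), and lowered Qrsl1 (1.58-fold). Among 9 mitochondrial translation factors the hairpin raised 4 and lowered 1, and CPX lowered 3 (33.3%, where it lowered 24.8% of all genes), so few genes that these counts say little about the list. Tufm, the elongation factor that brings charged tRNAs to the mitochondrial ribosome, stood at 17.8 and 20.6 RPM in Pcbp1 hairpin libraries, against 2.96 and 3.35 RPM in scrambled libraries (5.62-fold higher, edgeR, adjusted p = 2.95e-05), and at 40.7 and 38.2 RPM with CPX, against 111 and 112 RPM with DMSO (2.79-fold lower). Tsfm, its exchange factor, fell 9.73-fold with CPX. Of 5 cytosolic elongation factors the hairpin lowered 4 and raised Eef2 (2.14-fold), and CPX raised Eef2 (1.81-fold).

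Genes of the amino acid response were examined because 4 cytosolic synthetase genes rose with CPX and ATF4 is known to raise many such genes. These 4 were among 20 cytosolic and shared genes, a share near the 19.9% of all genes that CPX raised. Another 8 of the 20 fell, where CPX lowered 24.8% of all genes, and 8 were not called. Among genes whose windows held TGATGNAA, Aars rose with CPX, while Iars, Tars, Yars and Gars were not called. The Sars window held no match. The part of ATF4 was not tested. Of 27 amino acid response genes other than the synthetases, CPX raised 13 and lowered 1 (Pycr1), where it raised 19.9% of all genes. Their median log2 fold change was 0.80. Ddit3, which encodes the transcription factor CHOP, stood at 146 and 207 RPM with CPX, against 8.24 and 10.2 RPM with DMSO (log2 fold change 4.17, limma, adjusted p = 0.00241). Slc38a2, an amino acid transporter, rose 4.66-fold, Cebpb 11.8-fold and Trib3 23.1-fold. Atf4 itself stood at 382 and 645 RPM with CPX, against 481 and 378 RPM with DMSO, and Asns, asparagine synthetase and a well known ATF4 target, stood at 143 and 151 RPM with CPX, against 114 and 61.7 RPM with DMSO (adjusted p = 0.0981). With the hairpin 8 of 25 tested genes rose and 7 fell, with a median of -0.18, shares near the 29.3% and 26.7% of all genes. Atf4 fell 1.47-fold, Asns 1.41-fold and Trib3 2.23-fold with it, while the transporter genes Slc7a5 (2.17-fold), Slc7a1 (1.80-fold) and Slc38a2 (1.53-fold) rose. Of the 4 eIF2 kinase genes, Eif2ak1 (HRI, which senses heme) rose 1.59-fold with the hairpin and fell 1.65-fold with CPX, Eif2ak3 (PERK) rose 2.02-fold with CPX, and Eif2ak4 (GCN2, which senses uncharged tRNA) rose 1.31-fold with the hairpin. Eif2ak2 (PKR) fell 1.62-fold with the hairpin.

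Markers of other cells moved with some libraries. Cd8a and Cd8b1, the markers of CD8 T cells, summed to 92.0 and 11.6 RPM in Pcbp1 hairpin libraries, against 90.5 and 11.9 RPM in scrambled libraries, so replicate 1 was high and replicate 2 low in both groups. The main test did not use replicate numbers. With the replicate number as a block, 23 synthetase genes were called in the knockdown, against 22 in the main test. In the CPX experiment they summed to 4.12 and 3.74 RPM with CPX, against 8.09 and 8.24 RPM with DMSO. Of the 5 myeloid markers Itgam and Itgax had values, and they summed to 62.8 and 47.2 RPM with CPX, against 2.75 and 2.97 RPM with DMSO, and to at most 2.10 RPM in the knockdown experiment. The defining myeloid markers Lyz2, Csf1r and Cd14 had means of 0.259, 1.77 and 4.05 in the authors' deposited table for CPX. Fibroblast markers (2 of 4 with values) summed to 4.90 and 3.22 RPM with CPX, against 0.203 and 0.460 RPM with DMSO, and the other 2, Col1a2 and Col3a1, are listed at 0 in the authors' deposited table for CPX. The part of these cells in the synthetase changes was not tested. Of the 4 B cell markers Cd79a alone had values, at most 1.51 RPM.

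In the authors' deposited tables, 13 of the 36 genes were up and 6 down at an adjusted p under 0.05 with the Pcbp1 hairpin, and 19 calls were shared with the same direction. Qars, Hars2 and Iars2 were called here only. With CPX the authors' deposited table had 5 up and 17 down, which took in all 21 genes called here and added Hars2. Kars-ps1, a pseudogene copy of Kars, is listed at 0 in the authors' deposited tables. Reads shared with such copies could have been counted differently under other settings, so the Kars level is uncertain to that extent.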

How the data were processed

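RNA from mouse Th1 cells was sequenced by the submitters. Named in the submitters' processing notes are the tools STAR, cutadapt, DESeq and HTSeq and the build mm9, without versions or annotation. The deposited table is named for RPM, but the values found were raw counts per gene for the knockdown, since 1 size factor per library turned them into the authors' mean signal (the mean of size-factor-normalized counts in the deposited result tables) to a relative 2e-09. The deposited CPX and DMSO values are a score: counts times a factor common to the 4 libraries, rounded, so that whole reads could not be recovered and no count test was run. The authors' result tables also hold log2 fold changes with standard errors, the Wald statistic (a score without unit) and p-values, per the file headers. Gene labels could not be used after 1 constant line (labelled Ins1, 23487630 in every library), where 7246 of 7247 matched lines carry another gene's label. Lines reaching 10 in 1 library, 14805 of 33899, were given to the gene whose mean in both authors' tables they matched (absolute tolerance 1.2 for CPX). Of these, 14455 matched 1 gene and 350 more than 1, which were left out.

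Genes reaching 1 RPM in 2 or more of an experiment's 4 libraries were tested with edgeR 4.0.16 (quasi-likelihood, TMM scaling) for the knockdown and limma 3.58.1 (trended variance, pseudocount 0.5) for CPX and for the difference, in R 4.3.3. Fold changes on the log2(RPM + 0.5) scale understate the change of low genes. The knockdown SE was derived from edgeR's F (log2 fold change divided by its square root), so the SEs of the experiments are not the same quantity. RPM values carry no TMM scaling. Replicate numbers do not pair the libraries by any label. Alternatives were DESeq2 1.42.0, other scalings, pseudocounts, filters, the replicate number as a block, leaving out each library, and, chosen after seeing the data, taking out length and GC content and leaving mt-Rnr1, mt-Rnr2 and Lars2 out of the totals. For the knockdown, length and GC content were taken out in a limma fit on log2(RPM + 0.5) without TMM scaling, so the test changed as well. The scripts were tested on simulated data. The 36 genes, the lists of related genes and markers, and the rule for genes named from them (up to 4 with the smallest p of each list; of the 36, those called and the 4 largest rises and falls) were chosen with earlier results of these data known. Some further related genes were named after their values were seen.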

Additional observations from a re-analysis of the deposited data

How the results depend on the processing

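Calls that held under every alternative were 12 of 22 for the knockdown (Dars, Farsa, Gars, Kars, Mars, Nars, Nars2, Tars, Tars2, Wars, Yars and Yars2), 4 of 21 for CPX (Aars, Farsa, Kars and Mars2) and 15 of 21 for the difference. Since the difference drew its variance from both experiments, its 15 of 21 cannot be set against the 4 of 21 for CPX. Leaving out 1 library at a time, the CPX experiment gave 6 to 21 synthetase genes called (main value 21), with 1 to 4 up and 4 to 17 down, and 2108 to 5809 genes in all. Among them were 1 to 4 cytosolic or shared genes up and 2 to 9 down, and 0 mitochondrial genes up and 2 to 8 down. For the difference the negative calls ran from 2 to 4, of them 0 to 1 mitochondrial. For the knockdown the mitochondrial rises were 0 to 0, since Iars2 was lost each time. The single mitochondrial rise with the hairpin was also 0 with median ratio scaling, DESeq2, quantile normalization, no filter, a filter of 5 RPM, and length and GC content taken out, and 2 with limma and with the replicate block. That with CPX (Lars2) was 0 with no trend of the variance and with no filter. With length and GC content taken out, cytosolic or shared genes that fell were 4 in the knockdown and 5 in the difference, and Aars (-0.20, adjusted p = 0.0343, limma), Sars (-0.22), Eprs (-0.061) and Iars2 (-0.14) turned sign in the knockdown and Qars (-0.52) in the difference. Leaving out 1 library at a time, Lars2 ran from -1.48 to 1.18 in the knockdown. The cause of these shifts was not tested. With the replicate block 23 synthetase genes were called in the knockdown (Wars2 added, 0.35, adjusted p = 0.0394, edgeR), 22 for CPX (Hars2 added, -1.13, adjusted p = 0.0372, limma) and 21 for the difference. The labels do not say that equal numbers share an animal or a day. Replicate differences correlated across genes at 0.29 in the knockdown and 0.10 in the CPX experiment, over 2 numbers each, so pairing was not assumed.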
